A study of Mus musculus with 8 samples.

Results

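A set of 10 genes of the tumor necrosis factor (TNF) superfamily were followed in primary mouse astrocytes with reduced GSTM1 expression: the ligands Tnf, Tnfsf9, Tnfsf10, Tnfsf13b and Tnfsf15, and the receptors Fas, Tnfrsf10b, Tnfrsf11b, Tnfrsf12a and Cd40. They were taken by gene symbol, and all 10 were found among the 54146 genes listed. The set was chosen with earlier results of these data known. The cells were cortical glia of C57BL/6 pups at postnatal days 2 to 5, depleted of CD11b+ cells. All of them carried a lentiviral shRNA vector and passed puromycin selection, so the control knockdown (control KD, a non-silencing shRNA) shared both with the Gstm1 shRNA (GSTM1 KD), and neither shRNA was limited to one cell type. Each knockdown was left unstimulated (basal) or received TNF-α protein at 50 ng/ml for 6 h, which gave 4 groups of 2 libraries. The paper describes the 2 libraries of a group as biological replicates. The labels do not say what a replicate number stands for, and the p-values measure the spread between these libraries.

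The poly(A) libraries held 17349682 to 34434615 estimated read counts each, and between 19371 and 21557 genes had a count. Gstm1 was lower in every GSTM1 KD library, at 676 and 626 counts against 8153 and 9644 in the basal controls and at 527 and 405 against 4851 and 6492 after TNF-α. Astrocyte markers were abundant: all 10 on the list were above 3 counts in each group, and their summed level was 1790 and 4130 TPM (a level scaled by transcript length and by library) in control KD basal, 4130 and 6240 in GSTM1 KD basal, 1770 and 3940 in control KD with TNF-α, and 3910 and 5940 in GSTM1 KD with TNF-α. The members did not move together. Mean Gfap was 1456 TPM in control KD basal (706.5 and 2205.84) and 3259 in GSTM1 KD basal (2332.92 and 4184.21). Means were also higher in GSTM1 KD basal for Aldh1l1 (104.7 and 228.7), Aldoc (48.9 and 109.3), Glul (275.8 and 496.2), Slc1a2 (34.08 and 52.84) and Gja1 (150.2 and 202.0). Aqp4 was at 384.8 and 379.8, Slc1a3 at 346.5 and 342.0, Sox9 at 148.6 and 109.6, and S100b at 11.38 and 4.375. The microglia and macrophage list of 12 genes summed to between 7.49 and 20.1 TPM. Its members differed, with P2ry12 at 2 counts or fewer and Cd68 at 36 to 150 counts in every library. Itgam, which encodes CD11b, ranged from 0 to 61 counts. The 6 fibroblast and mural cell markers summed to 3990 and 3610 TPM in control KD basal, 2170 and 1810 in GSTM1 KD basal, 3060 and 3120 in control KD with TNF-α, and 1850 and 1580 in GSTM1 KD with TNF-α, lower in every GSTM1 KD library than in its controls. The oligodendrocyte lineage list (533 and 596 against 441 and 423 TPM at baseline, 448 and 479 against 352 and 340 after TNF-α) and the sparse endothelial list (6.34 and 5.75 against 3.18 and 3.99 TPM, then 6.79 and 8.27 against 4.10 and 5.40) were lower too. The sum of the neuron list was higher (189 and 200 against 237 and 229 TPM at baseline, 183 and 182 against 208 and 215 after TNF-α), although its member Snap25 was at 0 in every GSTM1 KD library. The part of these lists in the knockdown differences was not tested. In these bulk libraries, fewer cells of a type and less RNA per cell cannot be told apart.

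TNF superfamily ligands are trimeric proteins, mostly held at the cell surface until cleaved, and they act by clustering their receptors. Receptors with an intracellular death domain, such as Fas and Tnfrsf10b, recruit the adaptor FADD and caspase-8 and can start apoptosis. Receptors without it, such as Cd40 and Tnfrsf12a, recruit TRAF proteins and turn on NF-κB, while Tnfrsf11b is a secreted decoy. Astrocytes are known to carry Fas and to raise CD40 when inflammatory cytokines are present.

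In the basal controls the receptors were far more abundant than the ligands, with Cd40 as the exception. Mean levels were 688.6 TPM for Tnfrsf12a, 202.8 TPM for Fas, 69.2 TPM for Tnfrsf11b and 38.65 TPM for Tnfrsf10b, at percentiles 99.1, 96.5, 88.3 and 80.2 of the 23113 genes with a level above 0. Cd40 and the 5 ligands lay between percentiles 17.8 and 49.3. Tnfrsf12a ranked 203rd from the top.

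**Figure D1:**
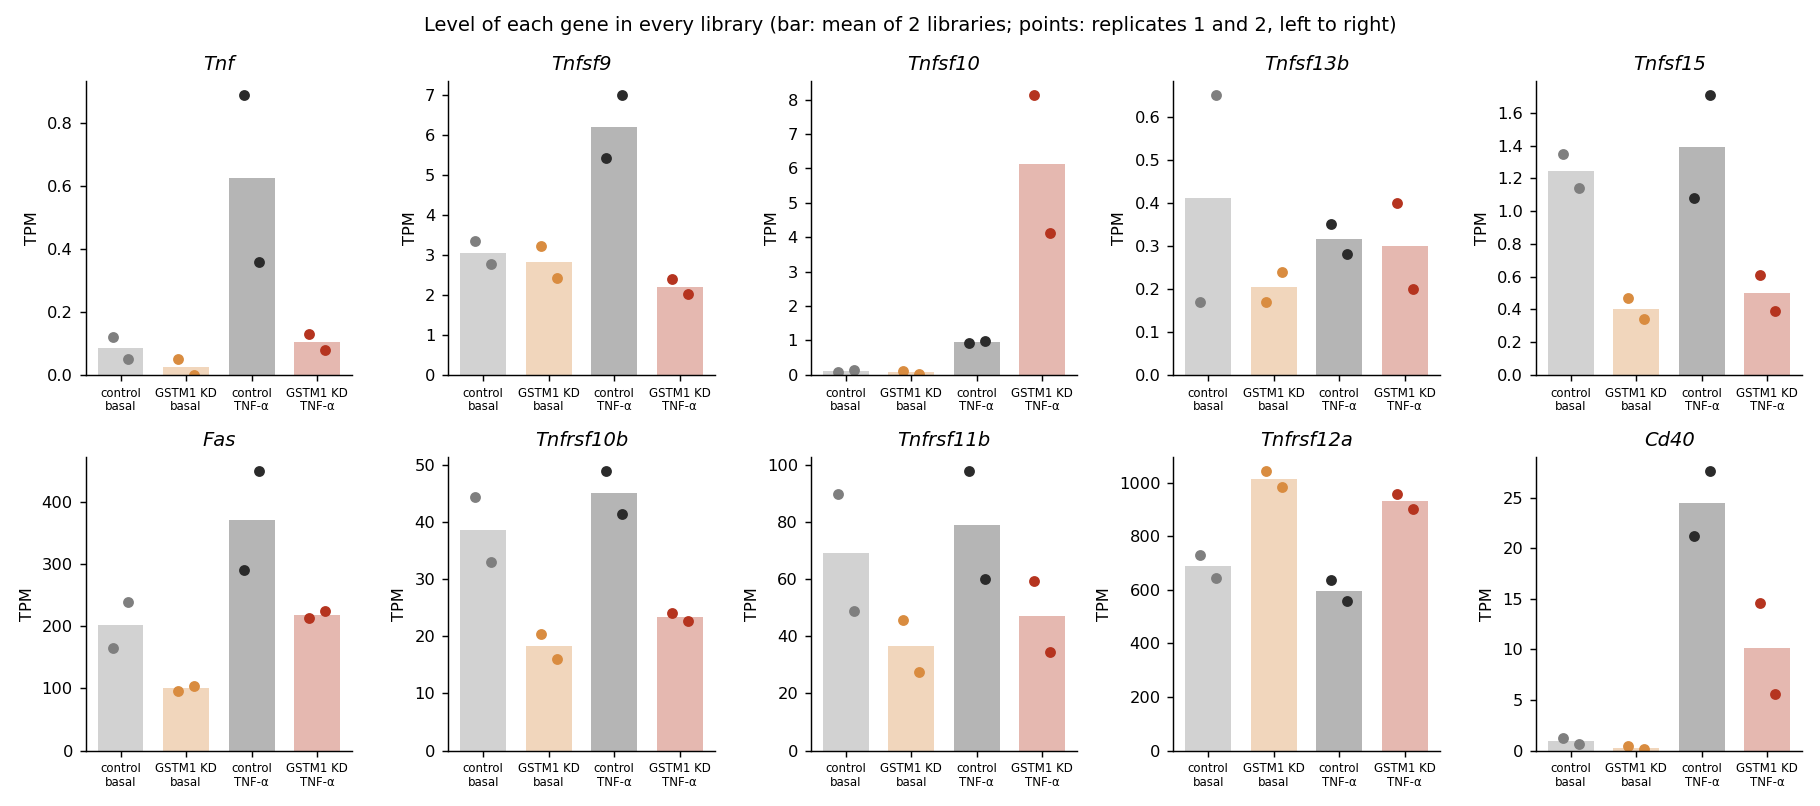
Level of each of the 10 genes in TPM (vertical axes, linear and starting at 0, with a scale of their own in each panel) in the 4 groups. Bars are means of 2 libraries and points are replicates 1 and 2 from left to right; Tnfsf10 stood out in GSTM1 KD with TNF-α at 8.13 and 4.13 TPM, and Tnfrsf12a was higher in all 4 GSTM1 KD libraries than in any control library.

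Among the ligands, Tnfsf10 (TRAIL, the ligand of the death receptor Tnfrsf10b; chromosome 3, 27317028 to 27342427, plus strand, GRCm38) had the widest range. It was counted 7 and 9 times in control KD basal, 6 and 2 times in GSTM1 KD basal, 60 and 47 times in control KD with TNF-α, and 487 and 194 times in GSTM1 KD with TNF-α. The basal groups overlapped (16 summed counts against 8, a ratio of 0.704 with a 95% counting interval of 0.261 to 1.74) and were not tested, and both stimulated GSTM1 KD libraries lay above both stimulated controls. TNF-α raised Tnfsf10 in control KD by a log2 fold change of 3.32 (SE 0.512, adjusted p = 0.02, edgeR quasi-likelihood test with Benjamini-Hochberg adjustment) and in GSTM1 KD by 6.48 (SE 0.545, adjusted p = 0.00176). The value in GSTM1 KD ran from 5.88 to 7.32 when 1 library was left out. Summed counts gave a 10.2-fold rise in control KD (95% interval 6.02 to 18.5) and a 94.3-fold rise in GSTM1 KD (47.6 to 219.0), intervals that cover counting error only. After TNF-α, Tnfsf10 was 6.15-fold higher in GSTM1 KD than in control KD (log2 2.62, SE 0.387, edgeR adjusted p = 0.0179). Without the higher of the stimulated GSTM1 KD libraries, replicate 1, the value was 2.03 and the edgeR adjusted p 0.0711. The rise in control KD did not pass without any single control library (2.92 to 3.74, edgeR adjusted p 0.0566 to 0.0969) or on the 4 control KD libraries alone (3.32, adjusted p 0.08).

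Whether the Tnfsf10 response itself differed between the knockdowns was tested as an interaction. The difference was 3.16 on the log2 scale (SE 0.832, unadjusted p = 0.00638, adjusted p = 1.0 by edgeR), so it was not called. It ran from 2.57 to 4.0 when 1 library was left out. An edgeR fit with no filter on low counts called it (adjusted p 0.000106), and DESeq2 did not (adjusted p 0.15). None of the 15332 genes tested passed for this difference by edgeR (0.0% called), and 295 had an unadjusted p under 0.05. DESeq2 called 27 and the fit with no filter 134. At nearly the same log2 value, that fit moved the basal Fas difference from an edgeR adjusted p of 0.0282 to 7.39e-13. The 10 interferon response genes, a list that holds no TNF superfamily gene, summed to 475 and 652 TPM in control KD basal and to 509 and 425 TPM in GSTM1 KD basal. After TNF-α they summed to 1260 and 1250 TPM in control KD and to 4380 and 2480 TPM in GSTM1 KD. As for Tnfsf10, GSTM1 KD replicate 1 was the highest library, replicate 2 the next and both stimulated controls below them, and the part of that list in the result was not tested.

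The Tnfsf10 promoter was read because the gene moved most. RefSeq places its start so that its upstream 250 bases hold 2 matches to the core letters bound by interferon regulatory factors (AANNGAAA, either strand). At least 1 match is held by 21.3% of 32534 mouse promoters in a window of that length, and the share with 2 was not counted. The 2 Tnfsf10 matches are shown in capitals, within 20 bases each, from chr3:27317018-27317037 and chr3:27317041-27317060 (GRCm38.p6, plus strand). The second lies within the GENCODE gene and the first straddles its start. Of the other genes with an entry, Fas and Tnfsf15 hold 1 match each, 1 of the 2 Tnfsf13b promoters holds 3 and the other none, and Tnf and Tnfrsf12a hold none. A match is a description and no evidence of binding.
Tnfsf10 match at -53: gcttagTTTCACTTttggtc
Tnfsf10 match at -30: acagtaAAAAGAAActgcat

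Tnfsf9 (the ligand of Tnfrsf9, CD137, a costimulatory receptor of T cells; chromosome 17, 57105325 to 57107757, plus strand) was lower with the knockdown after TNF-α. It stood at 3.36 and 2.77 TPM in control KD basal, 3.23 and 2.43 in GSTM1 KD basal, 5.43 and 7.01 in control KD with TNF-α, and 2.40 and 2.02 in GSTM1 KD with TNF-α. Both stimulated controls were above every other library, and the other 3 groups were close together. After TNF-α, Tnfsf9 was 2.91-fold lower in GSTM1 KD (log2 -1.54, SE 0.323, edgeR adjusted p = 0.0346), while the basal difference was -0.18 (SE 0.335, adjusted p = 0.74). The stimulated call was lost without either GSTM1 KD library (-1.68 and -1.42, edgeR adjusted p 0.154 and 0.236). The responses to TNF-α, 1.02 (SE 0.285, edgeR adjusted p = 0.151) in control KD and -0.31 (SE 0.311, adjusted p = 0.944) in GSTM1 KD, did not pass. An exon of Tnfsf9 overlaps Gm11110 on the opposite strand, and although the library kit keeps strand, whether counting used it was not stated, so its reads may be shared.

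Tnfsf15 (TL1A, the ligand of the death domain receptor Tnfrsf25; chromosome 4, 63727084 to 63745113, minus strand) was lower with the knockdown in both states. Its counts were 87 and 53 in control KD basal against 19 and 12 in GSTM1 KD basal, and 46 and 53 against 24 and 12 after TNF-α. No GSTM1 KD library reached a control library of the same state once scaled by library size. The basal fall was 3.18-fold (log2 -1.67, SE 0.353, edgeR adjusted p = 0.043), and after TNF-α the difference was -1.51 (SE 0.427, adjusted p = 0.0658), which passed without replicate 1 of the stimulated controls (-1.82, edgeR adjusted p 0.0337). The basal call did not pass with offsets for effective length (edgeR adjusted p 0.0514), without replicate 1 of control KD (-1.53, 0.0631), or without GSTM1 KD replicate 1 (-1.91, 0.176) or 2 (-1.48, 0.327). TNF-α left Tnfsf15 with overlapping groups in each knockdown, at log2 0.18 and 0.35.

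Tnf and Tnfsf13b did not pass the filter on low counts. Tnf (chromosome 17, 35199381 to 35202007, minus strand), the cells' own transcript and not the protein added, was counted 3 and 1 times in control KD basal, 1 and 0 times in GSTM1 KD basal, 17 and 5 times in control KD with TNF-α, and 2 and 1 times in GSTM1 KD with TNF-α. Only the stimulated controls stood above 3 counts. The summed counts of 22 against 3 gave 7.19 times more Tnf in stimulated control KD than in stimulated GSTM1 KD (95% counting interval 2.16 to 37.5), and 22 against 4 gave 8.41 times more than in basal control KD (2.86 to 33.6). In GSTM1 KD the 3 stimulated against 1 basal count gave a ratio of 3.32 (0.267 to 174.0). In the stimulated controls the microglia and macrophage list summed to 19.9 and 11.7 TPM, against 13.4 and 7.49 TPM in GSTM1 KD, and replicate 1 held the more Tnf and the more of that list in each group; its part in the Tnf counts was not tested. Tnfsf13b (BAFF, a survival factor of B cells; chromosome 8, 10006467 to 10039072, plus strand) had 2 to 8 counts in every library, and each counting interval of its ratios between groups included 1. In an edgeR fit with no filter, Tnf was called lower in stimulated GSTM1 KD than in stimulated control KD (adjusted p 0.0261), and no other comparison of these 2 genes passed in that fit. For the stimulated knockdown comparison, that fit called 4540 genes over all, against 2360 with the filter.

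Among the death receptors, Fas (the receptor of Fas ligand; chromosome 19, 34290666 to 34327772, plus strand) fell with the knockdown. It was measured at 165.7 and 239.91 TPM in control KD basal and at 96.47 and 103.51 TPM in GSTM1 KD basal. After TNF-α it was at 290.19 and 450.39 TPM in control KD and at 212.59 and 225.19 TPM in GSTM1 KD. GSTM1 KD libraries were below the controls of the same state, and stimulated GSTM1 KD overlapped basal control KD. The basal fall was 2.14-fold (log2 -1.10, SE 0.185, edgeR adjusted p = 0.0282), and the stimulated difference was -0.82 (SE 0.209, adjusted p = 0.0525). The basal call was lost without GSTM1 KD replicate 1 (-1.04, edgeR adjusted p 0.145) or 2 (-1.17, 0.168), and the stimulated difference passed with DESeq2 (adjusted p 0.00201). It passed by edgeR without replicate 1 of stimulated control KD (-1.10, adjusted p 0.00147) and without replicate 2 (-0.47, 0.0112). TNF-α raised Fas in GSTM1 KD by 1.19 (SE 0.234, edgeR adjusted p = 0.0493), a call lost without each GSTM1 KD library (1.14 to 1.25) and with 3 other settings (adjusted p 0.0515 to 0.053). In control KD the response was 0.89 (SE 0.231, edgeR adjusted p = 0.121; DESeq2 adjusted p 0.00612), and 1.17 without replicate 1 of stimulated control KD (edgeR adjusted p 0.0391).

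Tnfrsf10b (the TRAIL death receptor of the mouse; chromosome 14, 69767472 to 69784411, plus strand) was lower with the knockdown in both states. Its levels were 44.37 and 32.93 TPM in control KD basal, 20.36 and 16.06 in GSTM1 KD basal, 48.95 and 41.3 in control KD with TNF-α, and 24.09 and 22.58 in GSTM1 KD with TNF-α. All 4 GSTM1 KD libraries were below all 4 controls. The fall was 2.2-fold at baseline (log2 -1.14, SE 0.196, edgeR adjusted p = 0.0292) and 2.07-fold after TNF-α (log2 -1.05, SE 0.122, adjusted p = 0.0122). The basal call was lost without GSTM1 KD replicate 1 (-1.33, edgeR adjusted p 0.0991) or 2 (-0.98, 0.185), and the stimulated one likewise (-1.10, 0.0734, and -0.99, 0.0955). TNF-α itself gave 0.26 and 0.37 in control KD and GSTM1 KD, with neither past the test. So after TNF-α the ligand Tnfsf10 was higher and its receptor Tnfrsf10b lower in GSTM1 KD than in control KD. The fibroblast and mural markers were lower in the same GSTM1 KD libraries as Fas and Tnfrsf10b, and their part in these falls was not tested.

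The upstream sequences of Fas, which was lower with the knockdown, and Tnfrsf12a, which was higher, are given for comparison (RefSeq, GRCm38.p6; 6 of the 10 genes had an entry). Capitals mark matches, on either strand, to the interferon regulatory factor core AANNGAAA, the AP-1 site TGANTCA, the TATA box TATAAA, the κB consensus or the p53 half-site. Of all promoters, 21.3%, 6.73%, 12.3%, 3.92% and 7.13% hold these in 250 bases. Fas is read from chr19:34290409-34290658 (plus strand) and Tnfrsf12a from chr17:23677469-23677699 (minus strand). Fas has an AP-1 match and a core match, while Tnfrsf12a has none of these letters in this window.
Fas: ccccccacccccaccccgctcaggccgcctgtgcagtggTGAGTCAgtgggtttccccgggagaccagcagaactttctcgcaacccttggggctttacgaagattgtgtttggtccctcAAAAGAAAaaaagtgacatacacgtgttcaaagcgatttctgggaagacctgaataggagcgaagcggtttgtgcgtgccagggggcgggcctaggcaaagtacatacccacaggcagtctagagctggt
Tnfrsf12a: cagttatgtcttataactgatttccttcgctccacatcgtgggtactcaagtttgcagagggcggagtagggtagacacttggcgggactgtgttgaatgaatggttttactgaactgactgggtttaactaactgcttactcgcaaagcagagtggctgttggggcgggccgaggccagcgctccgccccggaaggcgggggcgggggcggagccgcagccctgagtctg

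Tnfrsf12a (Fn14, the receptor of the ligand TWEAK; chromosome 17, 23675445 to 23677468, minus strand) was the receptor that stood higher in GSTM1 KD. Its levels were 732 and 645 TPM in control KD basal, 1045 and 984 in GSTM1 KD basal, 637 and 558 in control KD with TNF-α, and 958 and 903 in GSTM1 KD with TNF-α. The 4 GSTM1 KD libraries were above the 4 controls. The rise was 1.49-fold after TNF-α (log2 0.58, SE 0.12, edgeR adjusted p = 0.0345), and the basal value of 0.49 (SE 0.13, adjusted p = 0.0696) passed with DESeq2 (adjusted p 0.0195) and without basal control KD replicate 1 (0.60, edgeR adjusted p 0.019) or 2 (0.38, 0.0449). The stimulated call was lost without GSTM1 KD replicate 1 (0.53, edgeR adjusted p 0.201) or 2 (0.63, 0.205). TNF-α gave -0.20 and -0.08, past the test in neither knockdown. With a mean level of rank 131, Tnfrsf12a was among the most abundant transcripts of stimulated GSTM1 KD.

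Cd40 (a costimulatory receptor of antigen-presenting cells; chromosome 2, 165055627 to 165072948, plus strand) had the largest log2 response to TNF-α in control KD of the 8 genes tested. Its counts were 27 and 11 in control KD basal, 6 and 2 in GSTM1 KD basal, 295 and 278 in control KD with TNF-α, and 199 and 63 in GSTM1 KD with TNF-α. The 4 groups did not overlap, and replicate 2 of stimulated GSTM1 KD lay well below replicate 1. TNF-α raised Cd40 by 4.58 on the log2 scale in control KD (SE 0.538, edgeR adjusted p = 0.00764) and by 5.09 in GSTM1 KD (SE 0.66, adjusted p = 0.00919). The call in GSTM1 KD was lost without basal GSTM1 KD replicate 1 (5.94, edgeR adjusted p 0.0924) or 2 (4.62, 0.115). The knockdown differences were -1.70 at baseline (SE 0.62, adjusted p = 0.131 by edgeR) and -1.20 after TNF-α (SE 0.432, adjusted p = 0.109), and DESeq2 called the second (adjusted p 0.0212). With a block on replicate number, edgeR called both (-1.72 and -1.29, adjusted p 0.0433 and 0.0377). The basal value was -2.54 without replicate 1 and -1.23 without replicate 2 of basal GSTM1 KD. The stimulated value was -2.03 without replicate 1 and -0.70 without replicate 2 of stimulated GSTM1 KD. Microglia also express Cd40, and their marker list summed to 20.1 and 10.4 TPM in control KD basal, 12.7 and 7.98 in GSTM1 KD basal, 19.9 and 11.7 in control KD with TNF-α, and 13.4 and 7.49 in GSTM1 KD with TNF-α. In each group replicate 1 had the more of that list. Cd40 was higher in replicate 1 of stimulated GSTM1 KD but in replicate 2 of stimulated control KD (16.7 against 12.7 CPM, counts scaled by library size), and the part of the list in the Cd40 values was not tested.

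Tnfrsf11b (osteoprotegerin, a decoy for TRAIL and for the bone ligand Tnfsf11; chromosome 15, 54250619 to 54278484, minus strand) passed no comparison by edgeR as designed. With a block on replicate number, which no label ties to a culture, edgeR called it lower in GSTM1 KD in both states (-0.97 and -0.83, adjusted p 1.46e-05 and 0.00132). It was at 136 and 73.2 CPM in control KD basal, 65.9 and 39.7 in GSTM1 KD basal, 149 and 93.0 in control KD with TNF-α, and 89.2 and 50.9 in GSTM1 KD with TNF-α. Replicate 1 was above replicate 2 in each group, and in each state the GSTM1 KD libraries lay below the controls, with a narrow gap. The knockdown differences were -0.99 (SE 0.357, edgeR adjusted p = 0.129) at baseline and -0.81 (SE 0.332, adjusted p = 0.142) after TNF-α, and DESeq2 called both (adjusted p 0.0156 and 0.0318). They ran from -1.40 to -0.47 and from -1.27 to -0.42 when 1 library was left out, and passed by edgeR without control KD replicate 2 of the same state (-1.37, adjusted p 0.00146, and -1.11, 0.0146).

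**Figure D2:**
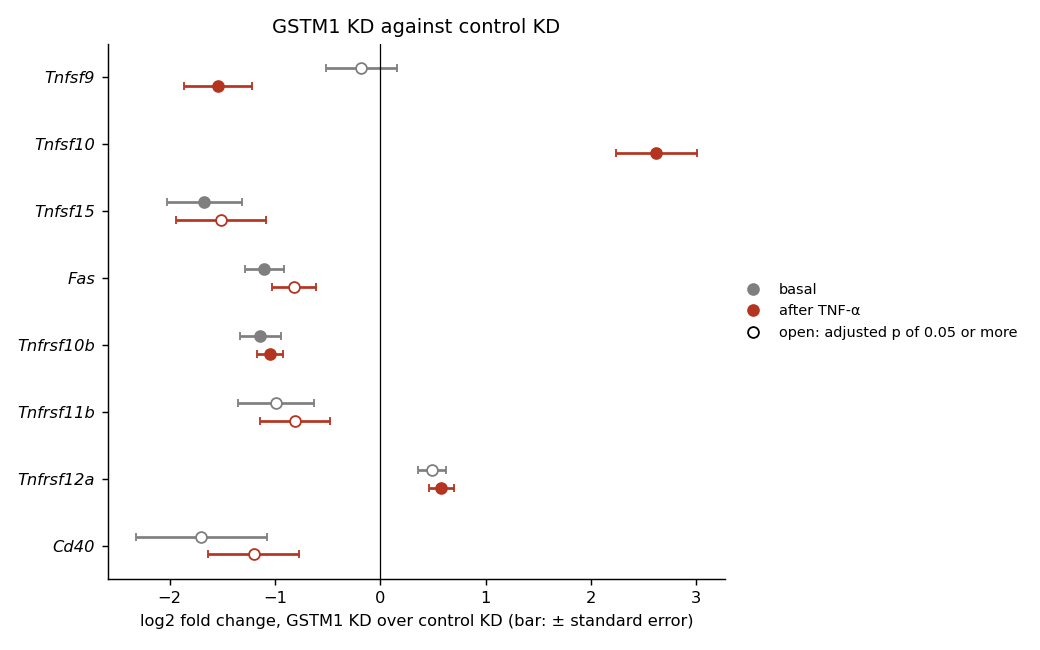
Knockdown effect on the 8 genes tested, as the log2 fold change of GSTM1 KD over control KD (horizontal axis) with its standard error as a bar, at baseline in grey and after TNF-α in red. Filled points had an adjusted p under 0.05. Tnfsf10 was not tested at baseline and stood at 2.62 after TNF-α. Tnfsf9, Tnfsf15, Fas, Tnfrsf10b, Tnfrsf11b and Cd40 lay below 0 in both states, and of these Tnfrsf10b alone was called in both.

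Counted over the genes, 7 of the 10 could be tested at baseline, of which none was higher and 3 were lower (Fas, Tnfrsf10b and Tnfsf15). Over all 14899 genes tested, 4.6% were called higher and 5.62% lower. The median log2 difference was -1.10 for the 7 and -0.002 for all genes. It was -0.14 for the 12 other receptors and -0.47 for the 4 other ligands of the family that could be tested. The 10 genes were chosen with earlier results of these data known, so such shares and medians do not test the set. After TNF-α, 8 could be tested, of which 2 were higher (Tnfsf10, Tnfrsf12a) and 2 lower (Tnfrsf10b, Tnfsf9), against 7.26% higher and 8.92% lower of 14593 genes, with medians of -0.94 and -0.011. Each knockdown count depended on both GSTM1 KD libraries. A fit without either left 1 library in that group and measured the spread between the 2 controls alone. Few calls remained in such fits, over all genes as well as the 10, whereas more genes were called without a control library. A call lost there does not show that the effect shrank. At baseline, Tnfrsf10b went from -1.14 to -1.33 without GSTM1 KD replicate 1 and to -0.98 without replicate 2. Tnfsf15 went from -1.67 to -1.91 and -1.48.

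TNF-α raised 2 of 8 tested genes in control KD (Tnfsf10, Cd40) and 3 of 8 in GSTM1 KD (Tnfsf10, Cd40, Fas), and lowered none. Tnfsf10 was too low for a test among the basal libraries, so it could be tested for the response only through its stimulated libraries. Over 15332 genes, 2.1% were called higher and 0.528% lower in control KD. For GSTM1 KD these shares were 2.35% and 0.294%. For the difference between the responses, 0 of 8 passed the edgeR adjustment and 2 had an unadjusted p under 0.05. They were Tnfsf10 and Tnfsf9, the second at -1.34 on the log2 scale (SE 0.422). In each of these comparisons Tnf and Tnfsf13b were removed by the filter on low counts.

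**Figure D3:**
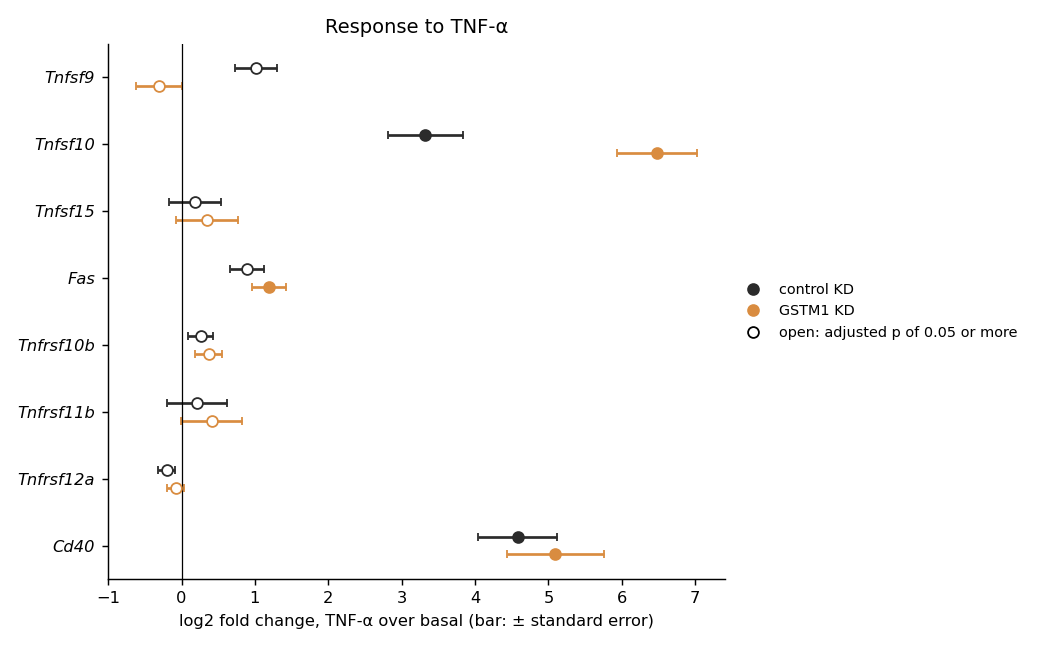
Response to TNF-α of the 8 genes tested, as the log2 fold change of stimulated over basal libraries (horizontal axis) with its standard error as a bar, in control KD (black) and GSTM1 KD (orange). Filled points had an adjusted p under 0.05; Cd40 rose by 4.58 and 5.09, Tnfsf10 by 3.32 and 6.48, and Tnfrsf12a lay near 0 in both.

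The partners of these ligands and receptors were uneven. Fasl, the ligand of Fas, had 2 counts or fewer in every library, and Cd40lg, the ligand of Cd40, had none, where 3 counts is the upper limit that a count of 0 allows. Tnfrsf9 (2 to 15 counts), Tnfrsf25 (1 to 13 counts) and Tnfrsf13c (2 to 14 counts), receptors of Tnfsf9, Tnfsf15 and Tnfsf13b, were also rare. The lymphocyte list, whose cells carry several of these partners, summed to 0.89 TPM at most. Tnfsf12 (TWEAK, the ligand of Tnfrsf12a) was counted 459 and 320 times in control KD basal, 161 and 126 in GSTM1 KD basal, 254 and 227 in control KD with TNF-α, and 161 and 118 in GSTM1 KD with TNF-α. It was lower with the knockdown at baseline (-0.95 on the log2 scale, SE 0.175, edgeR adjusted p = 0.0334) and after TNF-α (-0.81, SE 0.199, adjusted p = 0.0485). These falls were opposite in direction to its receptor, which was not called at baseline. The stimulated call was also lost without replicate 2 of the stimulated controls.

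**Figure D4:**
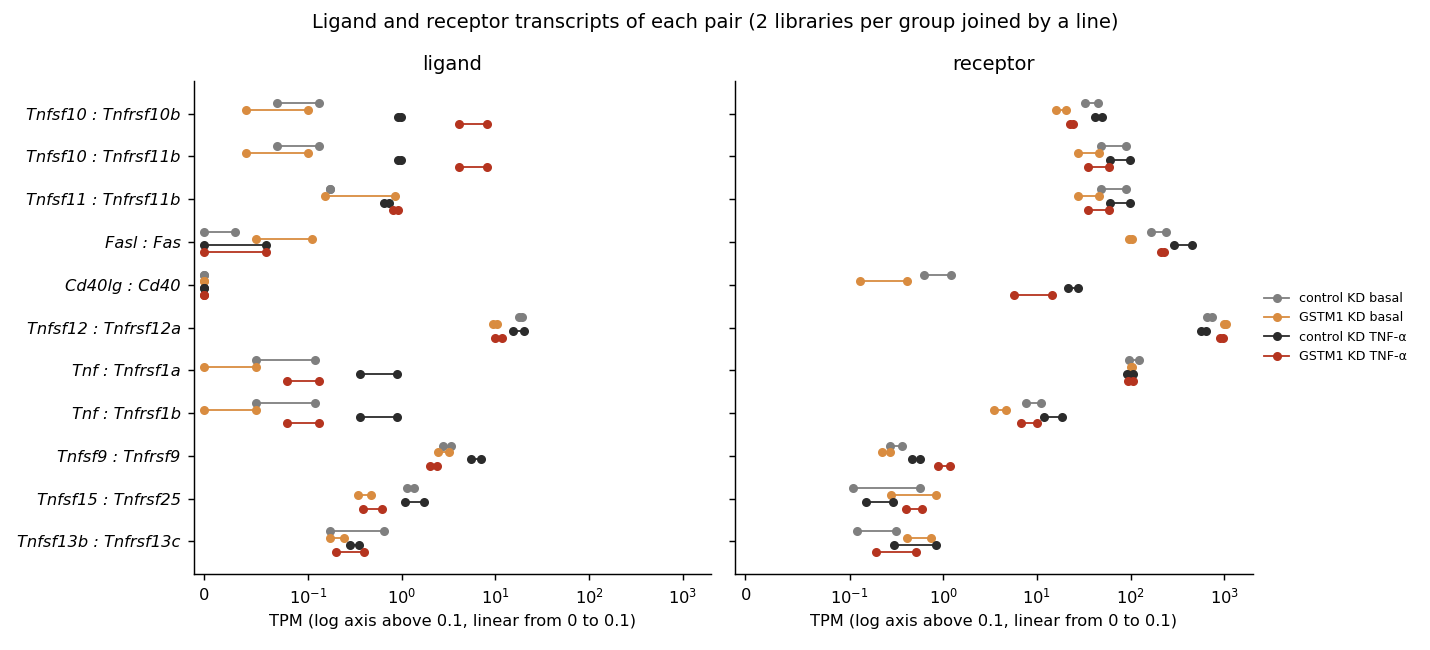
Transcript level in TPM (horizontal axes, logarithmic above 0.1 and linear below) of the ligand (left panel) and the receptor (right panel) of 11 pairs, with the 2 libraries of each group joined by a line. Cd40lg lay at 0 in all groups and Fasl near it, while Fas and Tnfrsf12a lay near or above 100 TPM. Tnfsf12 lay lower and Tnfrsf12a higher in GSTM1 KD, the latter not called at baseline.

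The receptors of TNF-α itself differed from each other. Tnfrsf1a, which carries a death domain, had 3803 and 3478 counts in control KD basal and 2614 and 2161 in GSTM1 KD basal, and passed in neither state (-0.14 at baseline and -0.06 after TNF-α). Tnfrsf1b, which lacks it, was lower at baseline (-1.25, SE 0.265, edgeR adjusted p = 0.0428) and at -0.88 after TNF-α (SE 0.274, adjusted p = 0.0811). Like the microglia and macrophage list, Tnfrsf1b was higher in replicate 1 of each group. That list summed to 20.1 and 10.4 TPM in control KD basal and 12.7 and 7.98 in GSTM1 KD basal, and its part was not tested. With Tnfrsf1a and Tnfrsf1b, 12 of 23 other receptors of the family could be tested for the knockdown. At baseline none was higher and 3 were lower (Tnfrsf1b, Relt and Tnfrsf21, a death domain receptor), and after TNF-α 1 was higher and 2 were lower, Relt at -0.95 and Tnfrsf21 at -1.16. Set against 4.6% higher and 5.62% lower of all genes at baseline and 7.26% and 8.92% after TNF-α, these are counts of 1 to 3 genes among 12. The higher one was Edar, an ectodysplasin receptor with 27 and 36 counts in GSTM1 KD where the controls had 2 and 3. When replicate 2 of basal control KD was left out, more receptors were called in each direction at baseline. Of 16 tested for TNF-α, 1 rose in each knockdown, Eda2r (0.57 and 0.72), another ectodysplasin receptor, against 2.1% and 2.35% of all genes. Its call in control KD stood in 1 of the 8 fits that left out a library and in GSTM1 KD in 4.

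Of 13 other ligands, 4 could be tested at baseline and 5 after TNF-α, and Tnfsf12 was the 1 lower in each, where 5.62% and 8.92% of all genes were. These ligand calls also changed when control KD replicate 2 of the state tested was left out. For the response 6 were tested, and 1 rose in control KD and 2 in GSTM1 KD, where 2.1% and 2.35% of all genes did. Tnfsf18 (GITR ligand) rose in both, by 3.67 in control KD and 4.37 in GSTM1 KD, from 57 and 19 to 246 and 338 counts and from 11 and 8 to 212 and 149 counts. Cd70, a costimulatory ligand, had 0 counts in both basal GSTM1 KD libraries and 32 and 14 after TNF-α (edgeR adjusted p 0.037). It stood at 0 and 2 against 22 and 17 counts in control KD (adjusted p 0.0544). Cd70 passed the filter on low counts only through its stimulated libraries, so it could be tested only because it was high there. Without either basal GSTM1 KD library, neither Tnfsf18 nor Cd70 was called in GSTM1 KD, and without any 1 stimulated library only Tnfsf18 was.

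Downstream of the receptors, all 25 genes of the death receptor signalling list were tested. At baseline 1 was higher and 5 were lower with the knockdown, and after TNF-α 2 were higher and 5 lower, with medians of -0.24 and 0.04. Over all genes 4.6% were higher and 5.62% lower at baseline and 7.26% and 8.92% after TNF-α. Traf3, a TRAF adaptor that restrains non-canonical NF-κB, was higher in both (1.24 and 1.07). Ripk1, the kinase that joins the TNF receptor to survival and death (-0.88 and -0.77), Birc3, an inhibitor of apoptosis (-1.64 and -1.01), and Diablo, an antagonist of such inhibitors (-1.0 and -0.90), were lower in both, as was Tnfaip3, a deubiquitinase that curbs NF-κB. The other gene higher after TNF-α was Cyld, a deubiquitinase (0.67). The fifth lower gene was Mlkl at baseline (-1.74) and Ripk3 after TNF-α (-1.43), the effector and the kinase of necroptosis. The lower genes thus included both inhibitors and promoters of cell death. TNF-α raised 7 of the 25 in each knockdown and lowered none, where 2.1% and 2.35% of all genes were called higher. Among the 7 were Birc3 (3.08 in control KD and 3.73 in GSTM1 KD), the NF-κB subunits Nfkb2 (2.09 and 2.07) and Relb (2.35 and 2.75), and Birc2, an inhibitor of apoptosis (1.35 and 1.29). The others were Tnfaip3, the adaptor Traf2 and Bid, a caspase-8 substrate that promotes apoptosis. Without either basal GSTM1 KD library, 3 of the 7 were called in GSTM1 KD. Without control KD replicate 2 of the state tested, 3 genes of the 25 were higher and 8 lower at baseline, and 6 higher and 4 lower after TNF-α. Without either GSTM1 KD library of that state, 0 genes of the 3 lists were called for the knockdown. Cyld, Mlkl, Ripk3, Edar, Tnfrsf1b and Cd70 fell outside the naming rule and were named after their values were seen. No member of these 3 lists passed for the difference between the responses by edgeR.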

How the data were processed

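Polyadenylated RNA of 8 libraries was sequenced. According to the submitters' processing notes and methods, the authors aligned reads with STAR 2.5.4b to GRCm38 (mm10) and quantified genes with RSEM 1.3.0. They deposited, per gene and library, expected counts, TPM and effective length; the annotation release and use of strand were not given in the sources used here. The 10 genes and the lists were chosen with earlier results of these data known.

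Expected counts were rounded and tested with edgeR 4.0.16 (R 4.3.3; TMM scaling, filterByExpr, quasi-likelihood F-test, Benjamini-Hochberg threshold 0.05 over all genes tested). Each knockdown contrast used the 4 libraries of its own state; responses to TNF-α and their difference were fitted on all 8. A log2 fold change is given with its standard error. TPM was used for levels, and TMM-scaled libraries for CPM. Ratios of summed counts carry exact binomial 95% intervals for counting error only, and 3 counts was the floor. All 10 genes were named. Of the other lists, genes called in the same direction in both knockdown comparisons or both responses were named. Under this rule values were given for at most 4 per list for the knockdown and at most 4 for the responses. Partners of the 10 genes and Tnfrsf1a were named as well. Alternatives were DESeq2 1.42.0, other scaling, filters, length offsets, fits and leaving out each library. Positions are from GENCODE vM21 on GRCm38, promoters from RefSeq, with motifs chosen after the sequences were seen.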

Additional observations from a re-analysis of the deposited data

Results flagged for a closer look

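Tnfsf9 and Tnfsf13b were the genes of the 10 whose stimulated libraries lay on opposite sides of their basal means in the 2 knockdowns. For Tnfsf9, both stimulated control KD libraries (3.19 and 4.15 CPM) were above the basal control mean of 1.79, and both stimulated GSTM1 KD libraries (1.39 and 1.15 CPM) were below the basal GSTM1 KD mean of 1.58. The difference between the responses was -1.34 on the log2 scale (SE 0.422, unadjusted p = 0.0151 and adjusted p = 1.0 by edgeR), so that it failed the correction over all genes. It ran from -1.53 to -1.11 when any 1 of the 8 libraries was left out. For Tnfsf13b, at 2 to 8 counts a library, both stimulated controls (0.215 and 0.12 CPM) were below the basal mean of 0.241, and both stimulated GSTM1 KD libraries (0.277 and 0.172 CPM) were above theirs of 0.115. Its difference, in an edgeR fit with no filter, was 1.40 on the log2 scale (SE 1.4, adjusted p = 1.0).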

How the results depend on the processing

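Of 587 values recomputed under other settings, 505 kept their direction and side of the threshold, 36 gained a call, 29 lost one and 17 changed sign. At baseline the count of the 10 genes called higher went from 0 to 1 with DESeq2, without a filter, with the replicate block and on all 8 libraries (Tnfrsf12a each time), and the count called lower from 3 to 5 with the replicate block. After TNF-α the count lower went from 2 to 5 with DESeq2, 7 without a filter, 6 with the replicate block and 4 on all 8 libraries. Genes raised in control KD went from 2 to 1 on the 4 control KD libraries, and with at least 10 counts required in every library 0 were called higher in either response, against 2 and 3, because Tnfsf10 and Cd40 were no longer tested and Fas did not pass. Without a filter 1 gene, Tnfsf10, was called for the difference between the responses, where 134 of all 26474 genes tested were. The other causes were not tested. Leaving out 1 library at a time gave 0 to 1 higher and 0 to 4 lower at baseline, 0 to 2 higher and 0 to 5 lower after TNF-α, and 1 to 2 and 1 to 3 raised in control KD and GSTM1 KD. Where a group was left with 1 library, it was assumed to vary like the others. The sign changes were all under this setting, in values not called as reported, of which the Tnfrsf11b response in GSTM1 KD passed with the replicate block (0.40, edgeR adjusted p 0.0285): the responses of Tnfsf15 ran from -0.18 to 0.48 in control KD and -0.05 to 0.64 in GSTM1 KD, those of Tnfrsf11b from -0.18 to 0.73 and -0.06 to 0.83, and the differences between responses from -0.23 to 0.53 for Tnfsf15, -0.12 to 0.31 for Tnfrsf10b, -0.32 to 0.61 for Tnfrsf11b, 0.00 to 0.21 for Tnfrsf12a and -0.32 to 1.36 for Cd40.

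Over all genes, the 1524 calls at baseline became 2492 with DESeq2, 3957 without a filter, 4712 with the replicate block and 2762 on all 8 libraries, and the 2360 calls after TNF-α became 4540 without a filter and 4302 with the block. The 403 and 406 responding genes became 742 and 630 with DESeq2, 1255 and 1050 without a filter and 988 and 808 with the block, and 72 and 691 on the 4 libraries of 1 knockdown. Scaling by library size alone called 870 of 1654 genes higher at baseline and 1350 of 2513 after TNF-α, against 686 of 1524 and 1059 of 2360. The groups share the replicate numbers 1 and 2, and the deviations of same-numbered libraries correlated at 0.22 to 0.687 over 15332 genes, but nothing in the labels ties the numbers to a culture. With the block, Tnfrsf11b was called lower in both states (-0.97 and -0.83, edgeR adjusted p 1.46e-05 and 0.00132), as was Cd40 (-1.72 and -1.29, adjusted p 0.0433 and 0.0377). It also called Tnfrsf12a at baseline (0.49, adjusted p 0.00424), Fas and Tnfsf15 after TNF-α (-0.79 and -1.49, adjusted p 0.00729 and 0.0432) and the Fas response in control KD (0.88, adjusted p 0.0157). At 17349682 to 34434615 counts a library, Tnf and Tnfsf13b passed no filter on low counts; the fit with no filter called Tnf lower after TNF-α.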
